A study of Mus musculus with 14 samples.

Results

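Here 10 genes of triacylglycerol synthesis, storage in lipid droplets and breakdown were followed over 14 samples of mouse blood-forming cells, each hybridised to 1 single-colour Agilent array. The 10 genes are Gpam, Lpin1, Lpin2, Dgat1, Dgat2, Plin2, Plin3, Pnpla2, Lipe and Mgll. They were taken by gene name, and all 24 of their probes are shown, out of 41174 probes carrying 27344 gene names. The group was picked because Dgat2 was higher in Rheb1-/- progenitors than in wild-type progenitors, and because Dgat1 was much higher in myeloid cells. Its values in the progenitor genotype comparison and in the comparisons of myeloid cells with progenitors are therefore descriptions without a test. The genotype comparison in myeloid cells took no part in the choice, and there the 8 genes other than Dgat1 and Dgat2 were tested.

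The cells were myeloid progenitors, titled GMP in the labels, myeloid cells and haematopoietic stem cells. They came from wild-type mice and from Vav1-cre; Rheb1fl/fl mice, called Rheb1-/-, in which the cre deletes Rheb1 across the blood system. Progenitors and myeloid cells had 3 arrays per genotype and stem cells 1. Age, sex, the sorting markers and whether the wild-type mice carried cre or floxed alleles are not given in the sources used here, and samples are not linked to animals. The p-values therefore reflect variation between these samples alone, which may be technical. Rheb1 (official symbol Rheb) encodes a small GTPase that switches on the kinase complex mTORC1.

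Triacylglycerol is made by adding fatty acids to a glycerol backbone. Gpam adds the first fatty acid to glycerol-3-phosphate in mitochondria, the lipins Lpin1 and Lpin2 remove the phosphate to give diacylglycerol, and Dgat1 and Dgat2, enzymes unrelated in sequence, add the last fatty acid. The product is stored in droplets coated by perilipins such as Plin2 and Plin3. Breakdown runs from Pnpla2 (ATGL), which takes off the first fatty acid, through Lipe (hormone-sensitive lipase) to Mgll (monoacylglycerol lipase). Neutrophils and macrophages form such droplets, and their lipids feed oxidation and the making of signalling lipids.

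The results turn on Dgat1, Dgat2 and Mgll, for which several probes read different stretches of sequence. Mgll probe 3 was designed on another transcript record of the gene than Mgll probes 1 and 2. The first 30 bases of 7 of these 60-base probes are shown, because agreement between probes rests on their being separate sequences. The positions that follow are those of the whole probe in the files' build, mm9, and the files' record of the transcript gives where on it each probe starts.
Dgat1 probe 1: atccccgtgcacaagtggtgcatcagacac
Dgat1 probe 2: caaggatatggactattcacggatcattga
Dgat2 probe 2: ggagggacgactgcagatccttttctaccg
Dgat2 probe 3: acaatcacaagaccaaatttggccttccag
Mgll probe 1: gcttagaattactaaagaagccaatgtgca
Mgll probe 2: cccggagtcaggacaaaacactcaagatgt
Mgll probe 3: gaggtgcttggaaaaaccatttttaaagcg

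The Dgat1 probes lie on the minus strand at chr15:76333128-76333274 and chr15:76333491-76333707, and both spans exceed the probe's length, so each crosses an intron. Dgat2 probes 2 and 3 lie on the minus strand at chr7:106302971-106303030 and chr7:106303052-106303111, starting at bases 1393 and 1312 of the transcript. The Mgll probes lie on the plus strand at chr6:88778286-88778345, chr6:88773375-88775678 and chr6:88716583-88716642, the middle one crossing an intron. No base was shared between the probes of any of these 3 genes. Among the other members, Lpin1 probes 1 and 3 overlapped by 40 bases and so were not separate readings.

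All 24 probes passed the filter on dim probes, and 22 were well above background on all 14 arrays. The exceptions were Gpam, above background on 9 arrays, and Mgll probe 3, above background on 5. A level is the log2 intensity minus the array's 75th percentile, so that 0 is the brightness at that percentile and a difference of 1 is 2-fold. Levels of different probes are not set against each other. Where a gene had several probes, probe 1, the brightest over the 12 replicated arrays, stood for it. Between 58.5% and 67.6% of spots per array were well above background, no spot was saturated, and replicates correlated at 0.988 to 0.992 across probes. Rheb was lower in Rheb1-/- cells by 1.08 ± 0.22 in progenitors (log2, SE, limma adjusted p = 0.095) and by 0.88 ± 0.22 in myeloid cells (limma adjusted p = 0.0121), on every Rheb1-/- array.

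**Figure D1:**
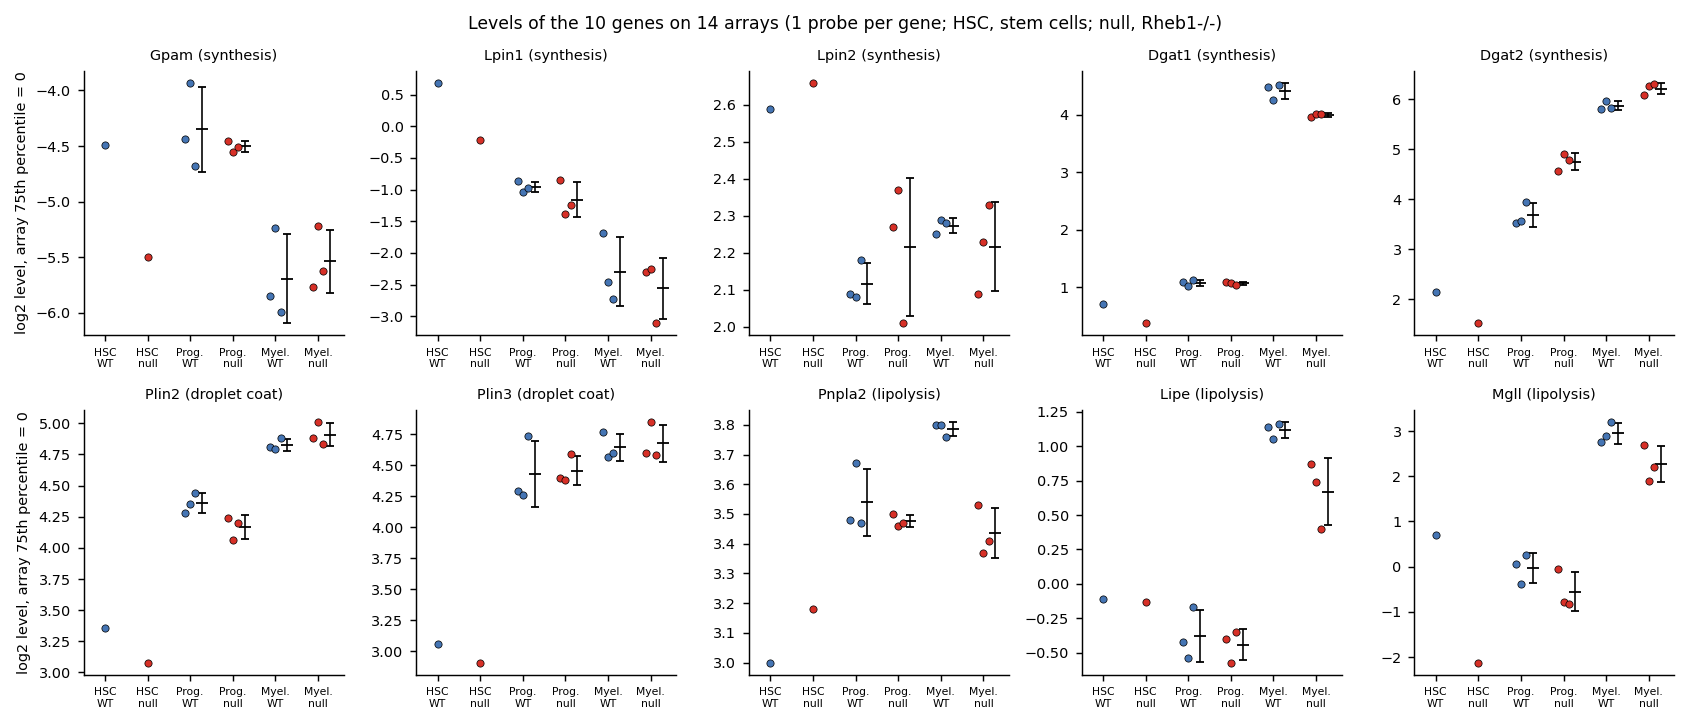
Level of each of the 10 genes on each of the 14 arrays (log2, array 75th percentile = 0; each panel has its own vertical axis). Points are arrays, blue for wild type and red for Rheb1-/-, and bars are the mean ± SD of 3 arrays. Dgat1 read 3.96 to 4.51 on the 6 myeloid cell arrays and 1.03 to 1.13 on the 6 progenitor arrays.

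Dgat2 was the member that differed most between genotypes in progenitors. Its level was 3.53, 3.57 and 3.95 on the 3 wild-type arrays and 4.56, 4.90 and 4.78 on the 3 Rheb1-/- arrays. Every Rheb1-/- array lay above every wild-type array, and the means differed by 1.06 ± 0.13 (SE), or 2.09-fold. The other probes gave 1.08 and 1.12. On the slide that held 2 progenitor arrays of each genotype the differences of the 3 probes were 0.97, 1.01 and 1.06. In bulk samples such as these, fewer cells of a type and less RNA per cell cannot be told apart.

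The other 9 members differed less in progenitors. Dgat1 read 1.09, 1.03 and 1.13 in wild type against 1.10, 1.07 and 1.04 in Rheb1-/-, overlapping ranges with a difference of -0.02. Plin2, a droplet coat protein, read 4.28, 4.35 and 4.44 in wild type against 4.24, 4.06 and 4.20, and was lower by 0.19 ± 0.08 without overlap. Mgll was 0.53 ± 0.27 lower, with ranges that overlapped, and probe 3, below background on all progenitor arrays, gave no usable direction. The remaining 6 members differed by 0.20 or less either way and overlapped. Probe 4 of Lpin2, however, designed on another transcript record than probe 1, was 0.66 lower without overlap. In all, 1 of 10 members was higher without overlap, against 11.5% of all genes tested, and 1 was lower, against 8.54%. The members' median difference was -0.06 and that of all genes 0.02. Because this comparison chose Dgat2, nothing is read from these shares. The summed level of 7 platelet markers was 29.7 to 47.8 in wild-type and 6.99 to 15.3 in Rheb1-/- progenitors (linear scale, 75th percentile = 1), and its part in the progenitor values was not tested.

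**Figure D2:**
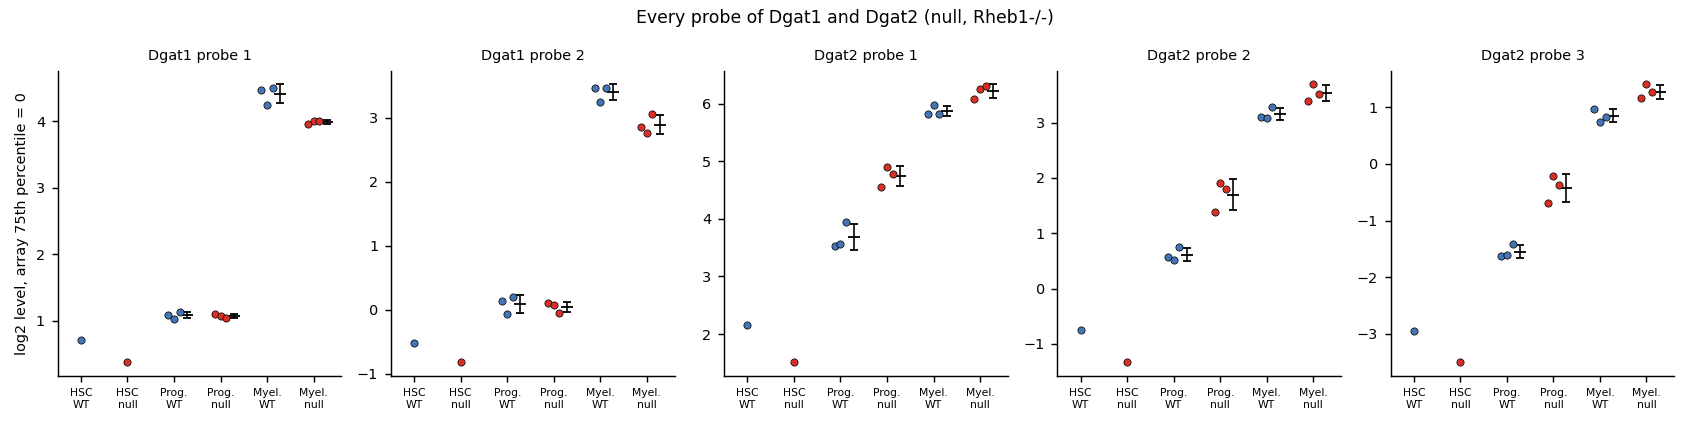
Level on each array (log2, array 75th percentile = 0) for the 2 probes of Dgat1 and the 3 of Dgat2; points are arrays, bars mean ± SD of 3 arrays, and each panel has its own axis. All 3 Dgat2 probes have the Rheb1-/- progenitors above the wild-type ones, whereas both Dgat1 probes separate myeloid cells from progenitors.

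In myeloid cells Dgat1 and Dgat2 differed between genotypes in opposite directions. Dgat2 read 5.81, 5.97 and 5.82 in wild type against 6.08, 6.26 and 6.30 in Rheb1-/-, a difference of 0.35 ± 0.13 with no overlap. Its other probes gave 0.37 and 0.42. Dgat1, by contrast, read 4.48, 4.25 and 4.51 in wild type against 3.96, 4.01 and 4.01 in Rheb1-/-, 0.42 ± 0.08 or 1.34-fold lower with no overlap. Dgat1 probe 2 was 0.51 lower. No p is given for either gene, since both were the reason for choosing the group, and whether the Dgat2 difference is smaller in myeloid cells than in progenitors was not tested.

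Of the 8 members tested in myeloid cells, Pnpla2 and Lipe fell and none rose (limma, adjusted over 17721 genes). Pnpla2, which starts triacylglycerol breakdown, read 3.80, 3.80 and 3.76 in wild type against 3.53, 3.37 and 3.41 in Rheb1-/-. It fell by 0.35 ± 0.08 on the log2 scale, lower in 3 of 3 arrays (limma adjusted p = 0.00761), and probe 2 gave -0.41 with overlapping ranges. Lipe, the lipase that acts next, read 1.14, 1.05 and 1.16 in wild type against 0.87, 0.74 and 0.40. It fell by 0.45 ± 0.14, again in 3 of 3 arrays (limma adjusted p = 0.0288), and probe 2 gave -0.32 without overlap. The Lipe call was lost without any single wild-type array or without Rheb1-/- array 2 or 3, with adjusted p between 0.0511 and 0.0962 over all settings that lost it.

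Mgll, the last lipase of the series, read 2.75, 2.90 and 3.20 in wild-type myeloid cells against 2.70, 1.90 and 2.20 in Rheb1-/-. The groups did not overlap, but the difference of -0.69 ± 0.27 missed the threshold (limma adjusted p = 0.0738). Without Rheb1-/- myeloid array 1 the adjusted p was 0.0339, without Rheb1-/- progenitor array 1 it was 0.0471, and with slide as a random block 0.0241. Probes 2 and 3 gave -0.84 and -0.77. By the probes that stand for the genes, all 3 lipolysis members were thus lower without overlap, where 28.8% of all genes were, and 2 fell, where 17.6% did.

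The coat proteins and the early synthesis enzymes did not pass the test in myeloid cells. Plin2 differed by 0.08 ± 0.08 (limma adjusted p = 0.485) and Plin3 by 0.03 ± 0.14 (limma adjusted p = 0.889). Lpin2 differed by -0.06 ± 0.10, and its 5 probes lay between -0.59 and -0.05. Lpin1 differed by -0.26 ± 0.29, and its 4 probes all lay below 0, down to -0.84, with ranges that overlapped in each. Gpam was above background on 1 of 3 wild-type and 0 of 3 Rheb1-/- myeloid arrays, so no fold is given.

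Set against all genes, 0 of 8 members rose where 16.7% of genes did, and 2 of 8 fell where 17.6% did. At an unadjusted p under 0.05, 0 were higher and 3 lower. Over all 10 members, 1 was higher without overlap (all genes 21.4%) and 4 were lower (28.8%), with a median difference of -0.16 against -0.082 for all genes. In this comparison each genotype lay on its own slide, so slide and genotype cannot be told apart.

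The myeloid cell samples of the 2 genotypes also differed in cell markers, both of myeloid cells and of other cells. Of 8 neutrophil markers 1 fell in Rheb1-/- and none rose. Of 8 stem and progenitor markers Kit rose by 0.89, Ly6a fell by 0.95 and 6 were not called. Of 10 macrophage and monocyte markers 7 fell in Rheb1-/-, with summed levels of 582 to 593 in wild type and 441 to 484 in Rheb1-/-. All 4 primary granule markers rose (594 to 717 against 1030 to 1430), and 6 of 7 erythroid markers fell (737 to 1180 against 103 to 453). Of 7 platelet markers 5 fell, of 5 B cell markers 3 (10.5 to 20.2 against 5.52 to 7.17), and of 7 T and NK cell markers 5 fell and 1 rose. Of 6 adipocyte markers tested Lpl and Fabp4 fell and Cfd rose, with summed levels of 2.32 to 3.00 against 0.842 to 1.35. Lep and the adipocyte perilipin Plin1 were above background on no myeloid array. The part of these cells in the lipid gene values was not tested.

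**Figure D3:**
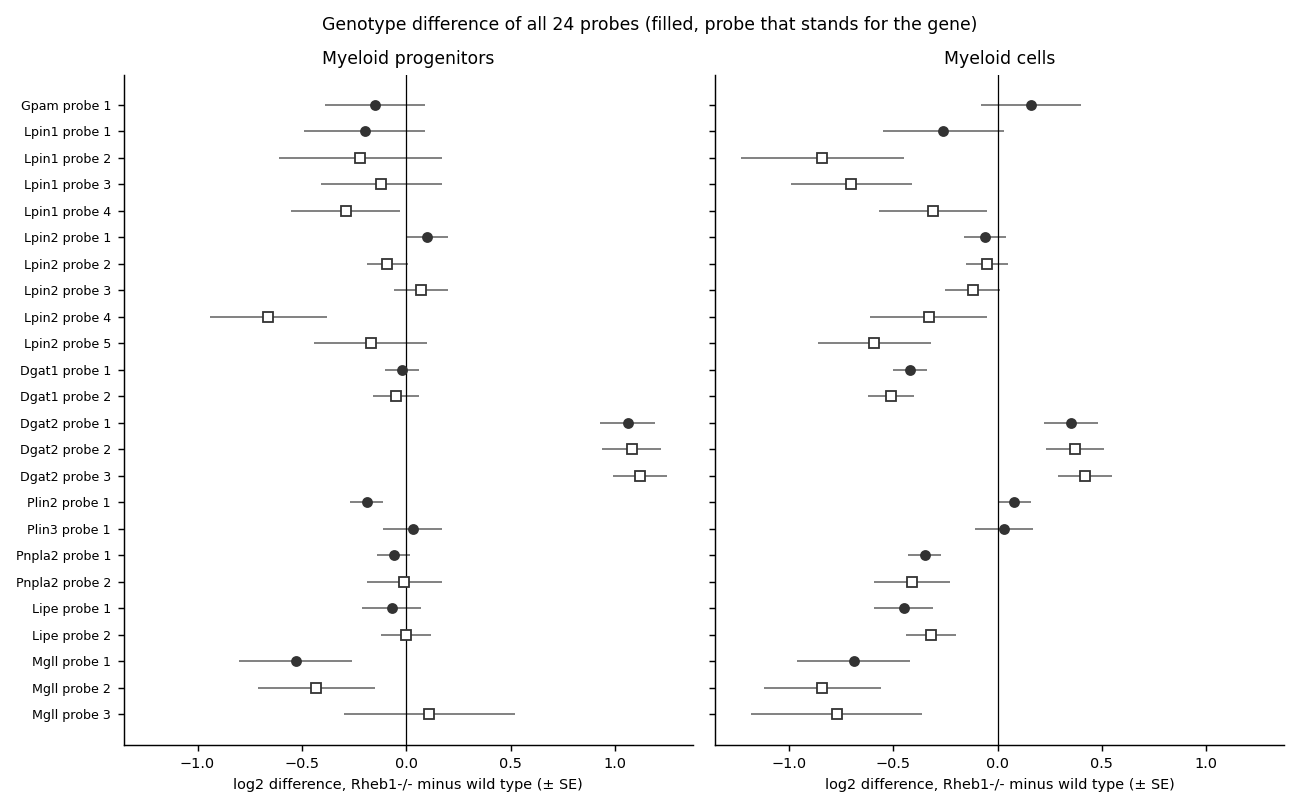
Difference between Rheb1-/- and wild type for all 24 probes in progenitors (left) and myeloid cells (right), in log2 units with its SE from the fit; filled circles are the probes that stand for their genes. The 3 Dgat2 probes lie at 1.06 to 1.12 in progenitors and at 0.35 to 0.42 in myeloid cells.

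By the probes that stand for the genes, the members split into 3 sets between cell types. The 7 with the largest differences had the same direction in both genotypes. Dgat1, Dgat2, Mgll, Lipe and Plin2 were higher in myeloid cells than in progenitors, and Lpin1 and Gpam were lower. Plin3, Pnpla2 and Lpin2 lay within 0.25 of equal, but for Pnpla2 and Lpin2 this depended on the probe. Lpin2 probe 2 was 0.52 higher in wild type and 0.57 higher in Rheb1-/-, without overlap. Of the 5 Lpin2 probes, each designed on a different transcript record, 4 lay above 0 and 1 below in each genotype. Dgat1 was 3.33 ± 0.08 higher in wild type, a 10-fold difference, and 2.92 ± 0.08 higher in Rheb1-/-, a 7.59-fold difference. Probe 2 gave 3.31 and 2.85. Within the slide that held 3 Rheb1-/- myeloid arrays and 1 Rheb1-/- progenitor array, the Dgat1 difference was 2.95. In wild type no slide held both cell types, so slide and cell type cannot be told apart there for any gene.

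Mgll came next, 2.98 ± 0.27 or 7.87-fold higher in wild type and 2.82 ± 0.27 or 7.07-fold in Rheb1-/-. Its progenitor levels were 0.06, -0.39 and 0.26 in wild type and -0.05, -0.79 and -0.82 in Rheb1-/-. Probe 2 gave 3.19 and 2.78. Probe 3, dark in progenitors, was at least 2.58-fold higher in wild-type and at least 1.90-fold higher in Rheb1-/- myeloid cells, where it was measured on 2 of 3 arrays. All 3 probes, of which probe 3 was designed on another transcript record, thus placed myeloid cells above progenitors in each genotype.

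Dgat2 was 2.18 ± 0.13 higher in wild-type and 1.46 ± 0.13 higher in Rheb1-/- myeloid cells, and the other probes gave 2.55 and 2.40 in wild type and 1.84 and 1.70 in Rheb1-/-. Lipe was 1.49 ± 0.14 and 1.11 ± 0.14 higher. Plin2 was 0.47 ± 0.08 and 0.74 ± 0.08 higher. The groups did not overlap for any of these 5 genes in either genotype. Whether a difference changed with genotype was not tested for any member.

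Lpin1, which also acts as a nuclear coregulator, was lower in myeloid cells by 1.33 ± 0.29 in wild type and by 1.40 ± 0.29 in Rheb1-/-. It read -0.87, -1.03 and -0.98 in wild-type progenitors and -1.69, -2.46 and -2.73 in wild-type myeloid cells, and all 4 of its probes were lower in both genotypes. Gpam read -4.44, -3.93 and -4.68 in wild-type progenitors and was lower by 1.34 ± 0.24 in wild-type myeloid cells, where 1 of 3 arrays was above background. In Rheb1-/- myeloid cells it differed by -1.04 ± 0.24, but there 0 of 3 arrays were above background, so the size is not well measured. After normexp background correction the Gpam differences shrank to -0.14 and -0.21. Pnpla2 was 0.25 ± 0.08 higher in wild-type myeloid cells without overlap and differed by -0.04 ± 0.08 in Rheb1-/-. Pnpla2 probe 2 was 0.60 higher in wild type without overlap and 0.20 higher in Rheb1-/- with overlap.

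In wild type, 39.5% of all genes passed the threshold as higher and 38.4% as lower. In Rheb1-/- the shares were 30.4% and 38.2%. The members were not tested in these comparisons. The members' median difference was 0.36 in wild type and 0.48 in Rheb1-/-, with 0.069 and -0.078 for all genes. Without overlap, 7 members were higher (all genes 40.9%) and 2 lower (39.1%) in wild type, and 5 were higher (32.7%) and 2 lower (40.5%) in Rheb1-/-. Since Dgat1 was chosen on this comparison, nothing is read from the shares. Quantile normalization moved the median of all genes in wild type from 0.069 to -0.047. Markers of the labelled cell types differed too: 8 of 8 neutrophil markers and 10 of 10 macrophage and monocyte markers were higher in wild-type myeloid cells and 6 of 8 stem and progenitor markers were lower. Of 7 erythroid markers 4 were higher, with summed levels of 6.23 to 16.6 in wild-type progenitors and 737 to 1180 in wild-type myeloid cells. The part of erythroid cells in the lipid gene values was not tested.

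**Figure D4:**
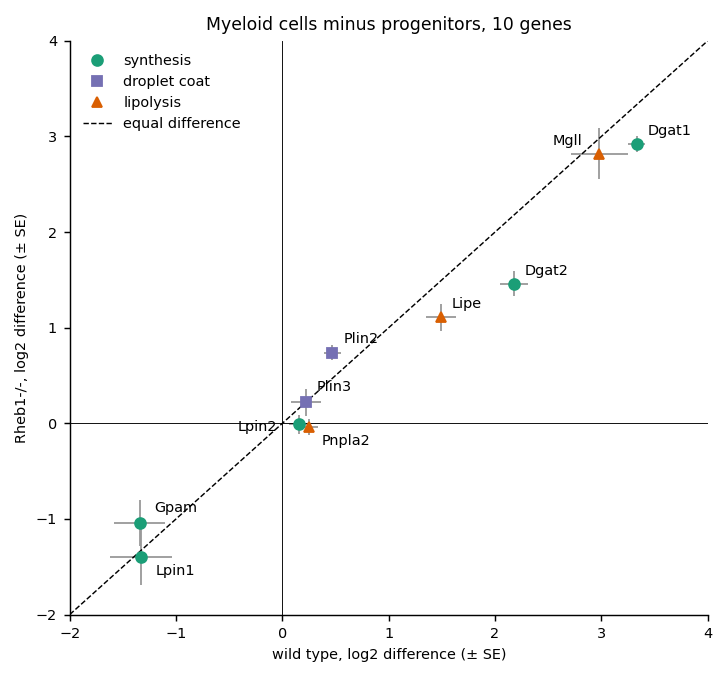
Difference between myeloid cells and progenitors in log2 units in wild type (horizontal) and Rheb1-/- (vertical) for the 10 genes, with the SE of each. On the dashed line both genotypes differ equally. Dgat2 lies below it (2.18 and 1.46) and Plin2 above it (0.47 and 0.74).

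The order of the 6 groups differed between members. Dgat2 ran from Rheb1-/- myeloid cells (mean 6.21) and wild-type myeloid cells (5.87) through Rheb1-/- progenitors (4.75) to wild-type progenitors (3.68), with no overlap between neighbours. Below them lay the stem cells, with 1 array each (2.15 in wild type and 1.52 in Rheb1-/-). Dgat1 ran from wild-type myeloid cells (4.41) through Rheb1-/- myeloid cells (3.99) to progenitors (1.09 and 1.07, which overlapped) and stem cells (0.71 and 0.38). Lpin1 ran the other way, from stem cells (0.69 in wild type and -0.21 in Rheb1-/-) through progenitors (-0.96 and -1.16, overlapping) to myeloid cells (-2.29 and -2.56, overlapping). By probe 1, Lpin2 stayed between 2.01 and 2.66 on all 14 arrays and was highest on the stem cell arrays. Plin3 was lowest in stem cells (3.06 and 2.91), and its 4 other groups overlapped with their neighbours at 4.26 to 4.85.

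The stem cells had 1 array per genotype, so their values carry no replicate check. Mgll differed most, at 0.70 in wild type and -2.12 in Rheb1-/-, 7.06-fold lower, and probe 2 gave a difference of -2.66. Probe 3 was below background on both. Gpam was 2.00-fold, Lpin1 1.87-fold and Dgat2 1.55-fold lower in Rheb1-/- stem cells. In progenitors and myeloid cells Dgat2 lay the other way, higher in Rheb1-/-. In all, 8 of 10 members were lower in Rheb1-/- stem cells, and the median difference of the 10 was -0.31 against 0.12 for all genes. Of the 8, Plin2 (-0.28), Plin3 (-0.15) and Lipe (-0.02) differed by less than the median size over all genes, 0.299. By 2-fold or more 2 members were lower, where 6.33% of all genes were, and none was higher, where 5.22% were. The 2 were Mgll and Gpam. Gpam lay at the limit, counted on a log2 difference rounded to -1, and its probe was dim (-4.49 in wild type and -5.5 in Rheb1-/-). The arrays of the 2 genotypes lay on different slides scanned on different days, so slide, day and genotype cannot be told apart. Marker sums of several cell types were higher on the wild-type stem cell array: macrophage and monocyte 286 against 96.0, eosinophil, basophil and mast cell 277 against 30.4, erythroid 80.4 against 12.9, B cell 28.5 against 13.8 and adipocyte 9.33 against 1.10. The sums of neutrophil (1090 against 561) and stroma and endothelium markers (2.92 against 1.37) were higher there too. Those of primary granule (457 against 684), stem and progenitor (120 against 149) and T and NK cell markers (36.2 against 46.8) were lower. Platelet markers were nearly equal (22 against 22.2). Of the adipocyte markers Lpl read 2.29 against -3.10 and Fabp4 1.81 against -3.53, whereas Car3 read -0.35 against -0.41 and Cfd -3.81 against -3.40. Lep, Plin1, Cidec and Retn were above background on neither stem cell array. The part of these cells in the Mgll value was not tested.

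Other genes of the same pathway were described from 5 lists of 89 genes, all on the array, of which 80 were bright enough to test. In progenitors, 0 of 80 rose and 0 fell (limma, adjusted p), where 0.0508% and 0.0226% of all genes did, and 10 had an unadjusted p under 0.05. The synthesis gene of smallest p was Agpat3, an acyltransferase, at -0.48 ± 0.16 (limma adjusted p = 0.289). Lpl, the lipase that frees fatty acids from circulating lipoproteins, was at -0.91 ± 0.33 (limma adjusted p = 0.306). The droplet gene Fitm1 was at -0.83, the fatty acid carrier Fabp4 at -1.72 and the oxysterol receptor Nr1h3 (LXR alpha) at 0.43, none of which passed. After normexp correction Fitm1 was at -0.21 and Fabp4 at -0.50, and with the deposited value table Nr1h3 was at 3.69. The Nr1h3 probe was well above background on 2 of 3 Rheb1-/- progenitor arrays. Outlier spots were left out of the main fit but not removed from the deposited values, and their part in the Nr1h3 change was not tested.

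In Rheb1-/- myeloid cells 9 of the 80 genes rose (11.2%, all genes 16.7%) and 19 fell (23.8%, all genes 17.6%). Among 17 synthesis genes 1 rose and 4 fell. Gpd1, which makes glycerol-3-phosphate, fell by 2.92 ± 0.30 on the log2 scale, 7.58-fold (limma adjusted p = 0.000265), and by 1.85 after normexp correction, the lowest of the alternatives, which reached 3.36. The monoacylglycerol acyltransferases parted, Mogat1 falling by 0.95 ± 0.12 (limma adjusted p = 0.000597) and Mogat2 rising by 1.08 ± 0.19 (limma adjusted p = 0.00234). The acyltransferases Agpat4 and Agpat3 also fell, by 1.12 and by 0.52. Mogat1 did not pass after normexp correction (limma adjusted p = 0.0743).

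Of 16 droplet genes 3 rose and 2 fell. Fitm2, which helps droplets bud, rose by 0.56 ± 0.13 (limma adjusted p = 0.00902), and Hilpda, an inhibitor of Pnpla2, rose by 0.52 ± 0.13 (limma adjusted p = 0.0132). Cidea also passed, but it was above background on no myeloid cell array and its difference is given no size. Faf2 fell by 0.31 ± 0.09 (limma adjusted p = 0.0285) and Hsd17b11 by 0.34. The Fitm2 call was lost with the mean of its probes (limma adjusted p = 0.0738), and that of Faf2 in 8 of 24 settings, up to 0.0948.

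Of 8 other lipolysis genes none rose and 2 fell. Lpl fell by 1.68 ± 0.33, 3.20-fold (limma adjusted p = 0.00397), and Lipa, the lysosomal acid lipase, by 0.60 ± 0.13 (limma adjusted p = 0.00708). Among 13 regulators, Angptl4, a secreted inhibitor of Lpl, rose by 1.38 ± 0.12, 2.60-fold (limma adjusted p = 0.00019). Mlxipl (ChREBP), a glucose-responsive activator of lipid synthesis genes, fell by 1.11 ± 0.16 (limma adjusted p = 0.000837), and by 0.50 after normexp correction. Nr1h3 fell by 0.58 ± 0.11 (limma adjusted p = 0.00487), Foxo1 by 0.46 and Tfe3 by 0.42. With the mean of its probes Lipa did not pass (limma adjusted p = 0.134), nor did Nr1h3 with the deposited value table (0.881). Agpat4, Agpat3, Cidea, Hsd17b11, Foxo1 and Tfe3 lie outside the naming rule and were named because their counts are small.

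**Figure D5:**
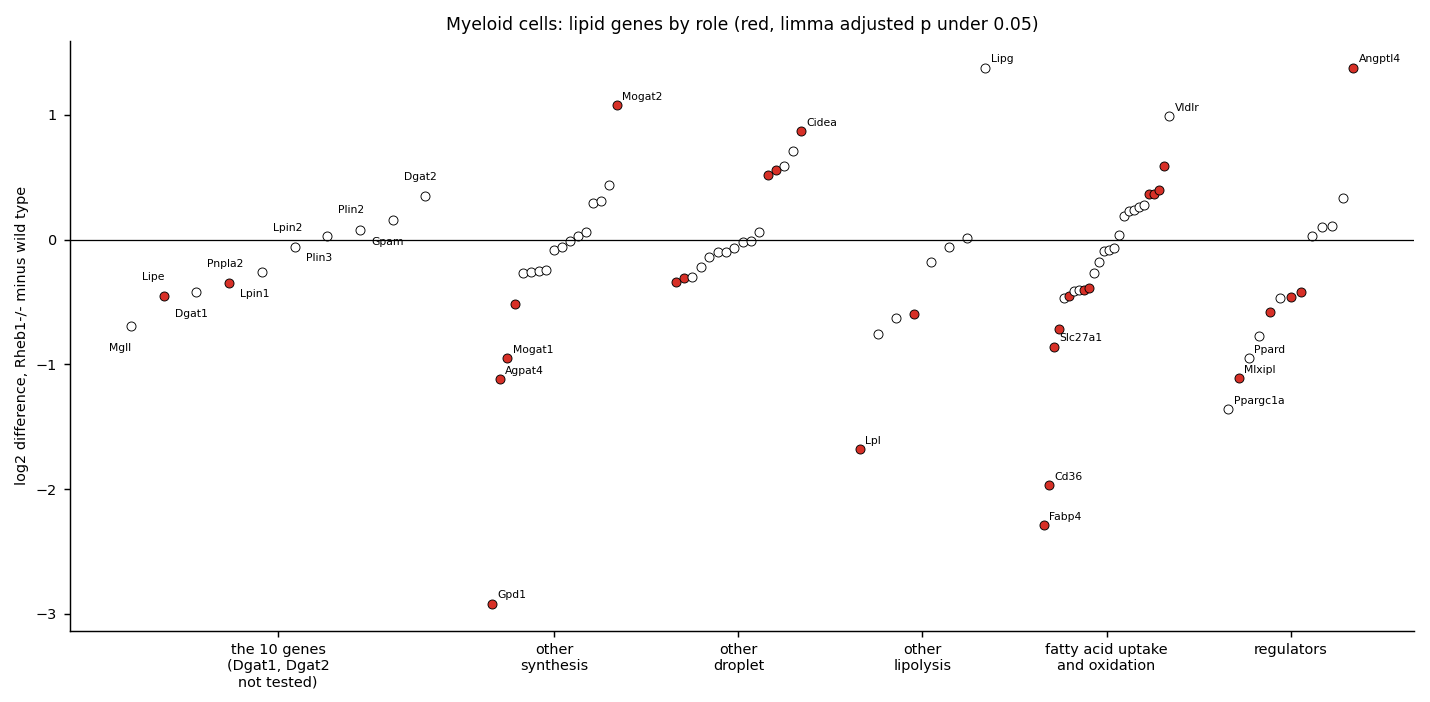
Difference between Rheb1-/- and wild-type myeloid cells (log2) for the 10 genes and for the tested genes of 5 other lipid lists, sorted within each list; red points have a limma adjusted p under 0.05. Dgat1 and Dgat2 are drawn as not tested. Red points are 9 above 0 and 19 below 0 in the other lists and Pnpla2 and Lipe among the 10 genes.

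Likeness to other genes was described over the 12 replicated arrays. The genes with the highest Pearson correlation with Dgat1 were Sipa1l2, Pdlim7 and Svil (0.999 each), then Mmp9 and Dennd3 (0.998). Those closest to Dgat2 were Rybp (0.989), Pxk (0.984), Igsf6 and Tlr4 (0.983 each) and E230001N04Rik (0.98). Of 14246 genes, 2946 reached 0.9 with Dgat1 and 723 with Dgat2. The arrays fall into 2 cell types, and any gene that differs strongly between them correlates with Dgat1.

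RefSeq promoters (GRCm38.p6, 250 bases before to 50 after the start) were at hand for 8 members, 13 promoters in all. None was at hand for Dgat1 or Dgat2. The palindrome CACGTG is the core bound by MYC, USF, ChREBP and TFEB family factors. It was present in 4 of the 8 genes (Lpin2, Plin2, Lipe and Mgll) and in 8.09% of 27025 genes. Counted by promoter it was in 4 of the 13 and in 7.15% of all 32851. Between cell types Lpin2 probe 1 differed by 0.16 in wild type and -0.01 in Rheb1-/-. Lipe, Mgll and Plin2 were all higher in myeloid cells in each genotype. Of these the windows of Lipe and Mgll, the ones with the larger differences, are shown with the motif in capitals, and in Plin2 it started 4 bases before the transcript. Lipe lies at chr7:25395938-25396237 on the minus strand, the motif starting 155 bases before the transcript. Mgll lies at chr6:88724162-88724461 on the plus strand, with the motif 44 bases before it.
Lipe: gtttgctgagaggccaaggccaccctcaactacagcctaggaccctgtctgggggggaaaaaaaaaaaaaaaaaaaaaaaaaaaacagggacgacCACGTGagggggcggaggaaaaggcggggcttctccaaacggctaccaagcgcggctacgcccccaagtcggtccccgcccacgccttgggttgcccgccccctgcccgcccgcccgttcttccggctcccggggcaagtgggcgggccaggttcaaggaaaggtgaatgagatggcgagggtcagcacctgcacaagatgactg
Mgll: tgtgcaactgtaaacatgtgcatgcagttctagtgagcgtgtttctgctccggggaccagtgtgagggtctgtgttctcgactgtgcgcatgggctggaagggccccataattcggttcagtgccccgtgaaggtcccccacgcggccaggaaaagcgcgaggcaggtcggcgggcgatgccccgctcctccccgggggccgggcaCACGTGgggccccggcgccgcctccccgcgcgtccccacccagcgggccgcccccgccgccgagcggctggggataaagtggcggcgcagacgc

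Other motifs were searched on both strands in the same windows. GGGCGG was in 9 of 13 promoters (35.7% of all 32851), TTGCNNAA in those of Gpam and Lpin2 (10.8%), and GGAAGT, which is contained in GAGGAAGT, in that of Lpin1 (23.8%). GAGGAAGT (3.2%), TCACNNCAC (3.77%) and the DR1 repeat, 2 copies of AGGTCA set 1 base apart (0.0396%), were in none of the 13. A match describes the letters of the window and says nothing of binding.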

How the data were processed

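Each of the 14 RNA samples was amplified, labelled in 1 colour and put on 1 Agilent array, per the labels' protocols. The intensity used was the processed signal, background-subtracted within each array, per the file headers, which name Feature Extraction 10.7.3.1 where the submitters' processing notes name 9.1. Mean and background intensities, per the file headers, served the normexp alternative (offset 50). The deposited values are log2, found to be quantile normalized, and served as another alternative.

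Control spots and outlier spots were left out and spots of a probe averaged. Log2 intensities, less each array's 75th percentile, were fitted in limma 3.58.1 under R 4.3.3 (statmod 1.5.0 and data.table of version 1.17.8) over the 12 progenitor and myeloid cell arrays, with 1 mean per group. A gene stayed in if every array of some replicated group had its probe well above background, which left 17721. The threshold was a Benjamini-Hochberg adjusted p of 0.05, two-sided. The fit was tested on simulated data. An "at least" fold sets the brighter mean against the higher of the dim probe's signal and the lowest well-measured signal per array. The number of arrays limits the precision.

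The members and lists were chosen with earlier results of these data known. The design first set the members' genotype comparison in myeloid cells as untested and the cell type comparisons as tested. This was turned round once the files showed that Dgat1 is higher in myeloid cells only between cell types. Named genes are the members, Rheb, up to 3 passing genes of smallest p per list and genotype comparison (else the gene of smallest p as a value), and the 5 genes most correlated with Dgat1 and with Dgat2. Same-numbered replicates did not deviate together (correlations -0.149 to 0.13), so the numbers were not taken as pairs. Slides were read from the array files. RefSeq (GRCm38.p6) gave names and promoters. Protein sequences were not used here, and some items are not reported here.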

Additional observations from a re-analysis of the deposited data

How the results depend on the processing

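No difference past the threshold changed sign. Small differences that had not passed did so in 22 of 1497 single-gene comparisons with an alternative, over 11 results: Gpam in myeloid cells went from 0.16 to -0.19 after normexp, and Lpin2 in progenitors from 0.10 to -0.15 with the mean of probes. In 1450 the side of the threshold was kept or, where untested, the value moved by less than the replicate spread. The cause of the changes below was not tested. In progenitors, 13 of all genes passed, and 33 after normexp, 25 with every probe tested on its own, 7 without a filter, 4 with slide as a fixed block, 0 with only the 4 arrays of 1 slide (limma, 1400 at an unadjusted p under 0.05) or only the 6 arrays (2152), 55 with array weights and 52 with an intensity trend and robust prior. Leaving out each array gave 6 to 77, the highest without Rheb1-/- array 1. After normexp 24.2% of those calls were higher, against 69.2%. With the replicate block, which changed no call of a member, 14 genes passed in progenitors and 5703 in place of 6065 in myeloid cells.

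In myeloid cells the members' median of -0.16 became -0.09 with quantile normalization and the deposited table, -0.31 with the mean of probes and -0.26 with a filter on all 12 arrays, and -0.21 to -0.02 leaving out each array, closest to 0 without wild-type array 1. Of the 8 tested, 1 rather than 2 fell without a filter and with only 6 arrays, and 1 to 3 leaving out each array. Pnpla2 passed in 24 of 24 settings (adjusted p 0.00189 to 0.0363), Lipe in 17, Mgll in 3. With only 6 arrays 12 rather than 19 other lipid genes fell. Slc27a1 (adjusted p 0.0715) missed the threshold with the mean of probes. Rheb passed in progenitors without Rheb1-/- array 1 (0.0432).

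Between cell types the wild-type median of 0.36 became 0.27 after normexp, 0.29 with quantile normalization and the deposited table, 0.45 with the mean of probes, 0.47 with the all-array filter and 0.33 to 0.44 leaving out each array. The Rheb1-/- median of 0.48 became 0.40 with quantile normalization and the deposited table, 0.74 with the all-array filter and 0.41 to 0.52 leaving out each array. The all-array filter leaves out Gpam. Testing every probe raised all calls to 20865 in wild type and 18474 in Rheb1-/-. Slide as a fixed block gives no value for the genotype comparison in myeloid cells or the cell type comparison in wild type. Signal near background limits Gpam and Mgll probe 3.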

Other observations

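Of 26 tested genes of fatty acid uptake and oxidation, 4 rose and 7 fell in Rheb1-/- myeloid cells. The fatty acid transport proteins Slc27a1 and Slc27a4 fell by 0.86 ± 0.12 (limma adjusted p = 0.000739) and by 0.72 ± 0.10 (limma adjusted p = 0.000844), and Slc27a3 by 0.39. Cd36, a fatty acid receptor, fell by 1.97 and Fabp4 by 2.29. Cpt1b, which passes fatty acids into mitochondria, fell by 0.40. The 4 that rose were the enoyl-CoA isomerases Eci1 (0.40) and Eci2 (0.59) and Etfa and Etfb (0.37 each), the subunits of the flavoprotein that passes on electrons from fatty acid oxidation. Slc27a3, Cd36, Fabp4, Cpt1b, Eci1, Eci2, Etfa and Etfb were named after their values were seen. Fabp4 is also on the adipocyte marker list, whose summed level was lower in Rheb1-/- myeloid cells.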
